A study of Homo sapiens with 2 samples.

Results

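The genes that make, clear, bind and sense retinoic acid were followed through human inner ear organoids collected on day 40. The 10 genes were taken by symbol from the 36601 genes of the count matrices: the synthesis enzymes ALDH1A1, ALDH1A2 and ALDH1A3, the reductase DHRS3, the clearance enzymes CYP26A1, CYP26B1 and CYP26C1, the binding proteins CRABP1 and CRABP2, and the receptor RARB. Each symbol matched 1 entry, and all 10 had UMIs (unique molecular identifiers, 1 per counted RNA molecule) in both libraries.

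The organoids came from WA25, an established human embryonic stem cell line, whose SOX2 locus, a progenitor gene of ear and nervous system, carries tdTomato as a nuclear reporter. Reporter-positive cells were sorted and loaded on a 10x 3' single-cell assay. The study compared a photo-crosslinked gelatin hydrogel (GelNB-CH) with Matrigel, a basement membrane extract, as the material around the organoids, with 1 library of each. Both groups share the reporter line, the day of collection and a sequence of FGF-2, SB-431542, BMP-4, LDN193189 and CHIR99021, a day of oDex, a small amount of growth factor-reduced Matrigel at the start and, later, a B27 supplement that lacks vitamin A, per the labels. The growth text of both libraries describes GelNB-CH embedding on day 11, and the sources used here give no separate text on how Matrigel was applied. Neither group has a replicate. No test was therefore made, every interval below covers counting error only, and every difference is one between these 2 libraries.

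Retinoic acid is made from vitamin A in a pair of oxidation steps. Retinol dehydrogenases turn retinol into retinaldehyde, the ALDH1A enzymes turn retinaldehyde into retinoic acid, and DHRS3 reduces retinaldehyde back to retinol. CYP26 enzymes oxidise retinoic acid for removal, CRABP proteins carry it in the cytoplasm, and retinoic acid receptors such as RARB bind DNA with RXR partners. In the developing ear, zones of synthesis and of clearance lie side by side in the otocyst, and retinoic acid is known for its part in patterning it and in mesenchyme and cartilage formation. RARB, CYP26A1 and DHRS3 are known targets that rise when retinoic acid acts on cells.

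The GelNB-CH library kept 18087 cells with a median of 8534 UMIs, and the Matrigel library 9813 cells with a median of 14007 UMIs. The libraries shared 63 cell barcodes among the kept cells. The cells fell into 24 clusters, of which 6 were named otic epithelium-like from 12 to 17 of 20 markers, 7 mesenchyme-like, 3 Schwann or satellite glia-like (glia below), 3 neuron-like, 1 cartilage-like, 1 central nervous system (CNS) progenitor-like and 1 melanocyte-like. The keratin-rich cluster 12 carried 12 of 20 otic epithelium markers, and cluster 23, led by muscle genes, carried 15 of 16 hair cell markers. Both stayed unnamed, because their leading genes held more markers of keratinocytes and of skeletal muscle, respectively. The mix differed between libraries: the otic share was 36.7% in GelNB-CH and 27.5% in Matrigel, and the glial share 6.99% and 25.5%. The names were rebuilt from the counts, and 7 of the 10 genes were among the variable genes that shaped the clusters (ALDH1A1, ALDH1A2, ALDH1A3, CYP26A1, CYP26C1, RARB and CRABP1). Differences of those genes between clusters are thus a description.

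RARB and CYP26A1 are the members with a start site that carries the textbook binding element of retinoic acid receptors. The stretches are printed because the counts of the same genes are read below. RefSeq (GRCh38.p14) gave 17 windows, each from 250 bases before to 50 after a start site, for all 10 genes. Each was searched on both strands for the receptor's hexamer AGGTCA, its variant AGTTCA, the variant GGGTCA and the further variant GGTTCA, and for direct repeats of any pair of them with 1, 2 or 5 bases between. A hexamer occurred in a window of 6 of 10 members and of 43.7% of all 27305 genes with a window. A repeat with 5 bases between occurred for 2 members and for 0.106% of all genes (29 of 27305). It lay in a single window of RARB and of CYP26A1, and the other windows of both genes held none. No member window held a repeat with 1 or 2 bases between, which occurred for 0.161% and 0.0513% of all genes. Capitals mark the repeat with its spacer in the stretches RARB, chr3:25428170-25428246, plus strand, and CYP26A1, chr10:93073763-93073839, plus strand:

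RARB: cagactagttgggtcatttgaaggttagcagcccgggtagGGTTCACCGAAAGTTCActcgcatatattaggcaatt

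CYP26A1: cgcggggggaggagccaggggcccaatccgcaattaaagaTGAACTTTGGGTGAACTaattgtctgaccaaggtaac

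The RARB repeat lies 53 to 37 bases before its start site and reads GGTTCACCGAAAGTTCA on the gene's strand. The CYP26A1 repeat lies 90 to 74 bases before its start site and reads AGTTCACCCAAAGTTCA on the opposite strand. A match is a description of the letters and not a measured binding site. Counts of a 3' assay do not show which start site an RNA came from.

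Levels are CPM, the UMIs of a gene per 1000000 UMIs of all genes in the cells named. Counts of a 3' assay are not scaled by length, and levels of different genes are therefore not ranked against each other. Each gene had a class where it was highest. ALDH1A1, ALDH1A3, CYP26C1 and CRABP2 were highest in otic cells, ALDH1A2 in glia, CYP26A1 in CNS progenitors, CYP26B1 and DHRS3 in cartilage, and RARB and CRABP1 in mesenchyme. The order used the mean of the CPM of both libraries, among named classes of at least 50 cells in each library. The same class led for 10 of 10 genes at a coarser clustering and with the 10 genes left out of the clustering, and for 8 at a finer one, where RARB and CRABP2 were led by a keratinocyte-like class.

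**Figure D1:**
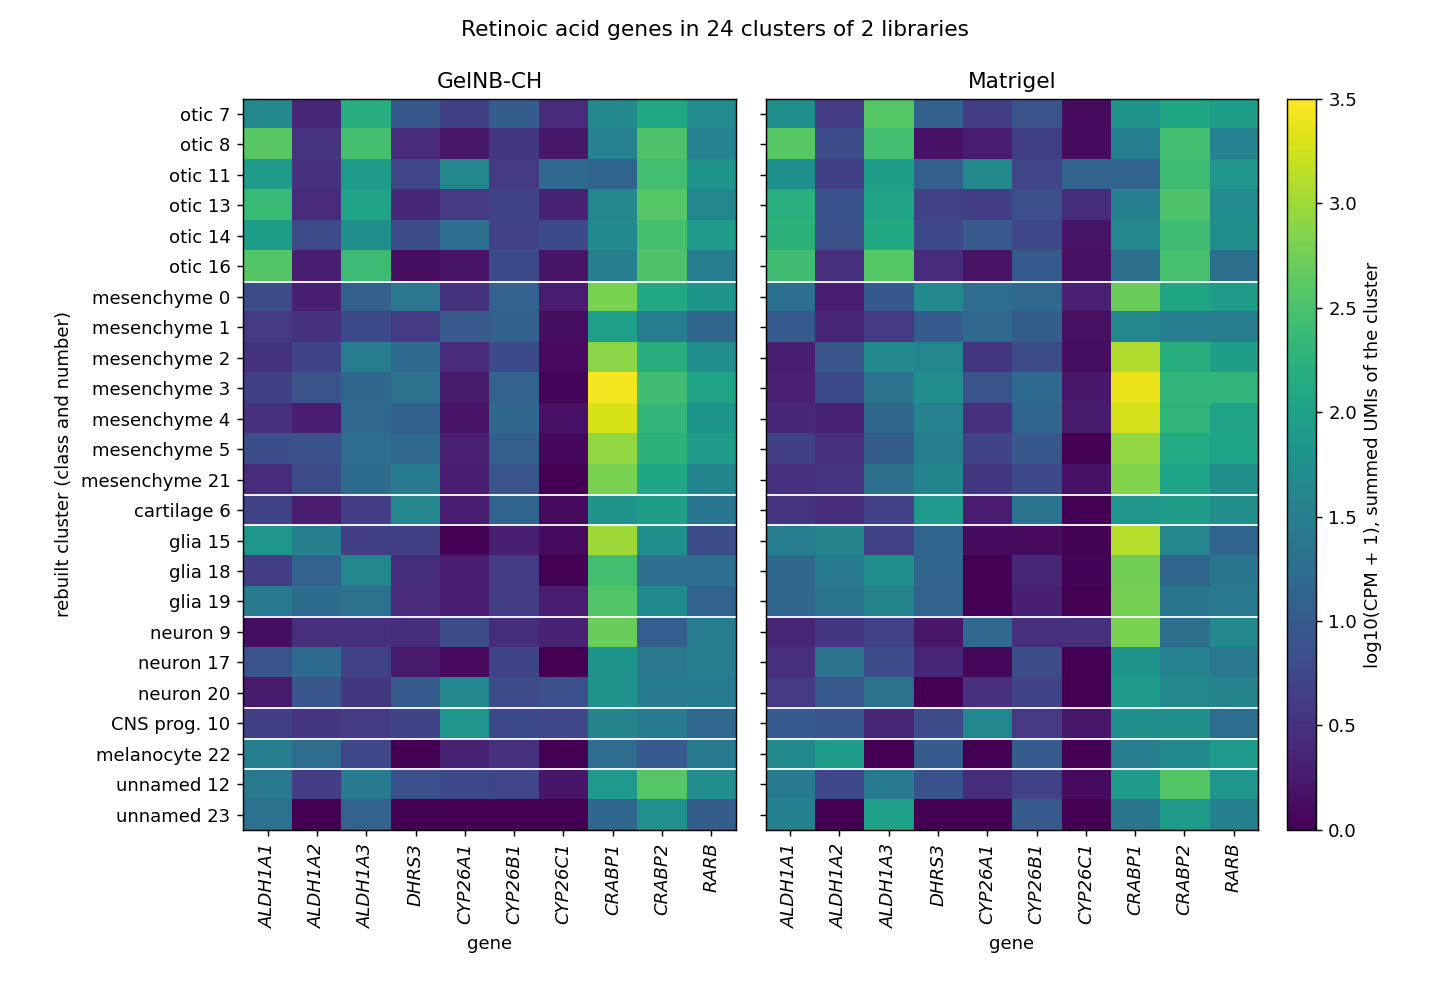
Level of the 10 genes in each of 24 clusters (rows, grouped by class) of the GelNB-CH (left) and Matrigel (right) library, as log10 of CPM plus 1. ALDH1A1 and ALDH1A3 are bright in the otic rows and CRABP1 in the mesenchyme and glia rows of both libraries, and CYP26C1 is brightest in otic cluster 11.

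ALDH1A1, a retinaldehyde dehydrogenase (chromosome 9, 72900662 to 73080442, minus strand), was mostly otic in both libraries. Its level was 162 CPM in GelNB-CH (95% Poisson interval 160 to 165) and 192 in Matrigel (188 to 196) in otic cells, against 7.89 and 11.1 in all other kept cells. Glia were above that pooled level, with 32.3 and 22.5 CPM. Glial cluster 15 had 69.7 and 30.7 CPM, with a UMI in 18.8% and 9.48% of cells thinned to 5000 UMIs. The otic log2 ratio of GelNB-CH over Matrigel was -0.24, and it turned to 0.25 with the same mix of otic clusters and to 0.32 in cells of 8000 to 16000 UMIs. Otic cells held 93.8% of its UMIs in GelNB-CH and 89.0% in Matrigel. After thinning each cell to 5000 UMIs, 33.9% of otic cells in GelNB-CH and 36.1% in Matrigel had a UMI, against 0.524% and 0.358% of neuron-like cells. Neuron-like cells are a class low in ALDH1A1, and their share is a comparison and not a measure of free RNA. Their median was 7665 and 14175 UMIs per cell, against 9593 and 15457 in otic cells. Unthinned, the shares were 42.8% and 50.2% of otic cells, against 1.13% and 1.59% of neuron-like cells.

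Within the otic class ALDH1A1 varied widely between clusters. It was highest in cluster 8, led by KRT17, KRT19 and ATP6V0D2, a subunit gene of the proton pump of acid-secreting cells, with 404 CPM in GelNB-CH and 383 in Matrigel. Cluster 16, led by LMX1A, OTOGL and CLDN9, had 363 and 263, and cluster 13, led by NPY and CLDN8, had 225 and 165. Cluster 7, led by CALB1, MYBPC1 and OC90, was low, with 46.8 and 54.4, and its Matrigel interval overlapped that of cluster 11 (57.0). The interval of the ratio included 1 in cluster 8. GelNB-CH was higher beyond counting error in clusters 11, 13 and 16, and Matrigel in cluster 7 and in the cycling cluster 14.

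ALDH1A3, the family member on chromosome 15 (100877714 to 100916626, plus strand), was also mostly otic, with 87.0% of its GelNB-CH and 85.4% of its Matrigel UMIs there. Its otic level was 128 CPM in GelNB-CH (126 to 131) and 265 in Matrigel (260 to 269), a ratio of 2.07 (95% interval 2.01 to 2.12), and the intervals did not overlap. The difference sat in particular clusters. In cluster 7 it was 158 and 378 CPM, in cluster 16 it was 252 and 375, and in cluster 14 it was 52.0 and 132. In clusters 8 (292 and 283), 11 (85.7 and 91.0) and 13 (109 and 110) the intervals of the libraries overlapped. With the otic clusters given the same weights in both libraries, the log2 ratio of GelNB-CH over Matrigel went from -1.05 to -0.62, and ALDH1A3 was then less than 2-fold apart.

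The pair of enzymes did not follow the same order of otic clusters. Cluster 7 was low in ALDH1A1 in both libraries, while its ALDH1A3 in Matrigel overlapped that of cluster 16 within the intervals. Of thinned Matrigel cells, 41.4% in cluster 7 and 57.5% in cluster 16 had a UMI of ALDH1A3. Clusters 8 and 16 were high in both genes. In thinned cells of cluster 7, 1.86% in GelNB-CH (exact binomial interval 1.11 to 2.93) and 2.88% in Matrigel (1.74 to 4.46) had a UMI of both genes, below the products of the single shares, 3.96% and 5.14%. In cluster 8 the shares with both were 39.5% and 37.8%, beside products of 39.6% and 35.6%. In cluster 16 they were 31.6% and 30.5%, beside 32.8% and 32.6%. In cluster 11 the share with both was 6.50% in GelNB-CH (5.50 to 7.61), beside a product of 4.78%, and 4.38% in Matrigel (2.41 to 7.23), beside 3.05%. In cluster 13 it was 14.7% (12.8 to 16.7), beside 12.5%, and 9.38% (6.62 to 12.8), beside 9.41%. In cluster 14 it was 4.47% (3.04 to 6.32), beside 3.12%, and 13.2% (9.14 to 18.2), beside 10.0%. The share thus lay below the product beyond its interval in cluster 7 of both libraries and above it in clusters 11 and 13 of GelNB-CH, and elsewhere the interval included the product. These shares are descriptions of cells within a library.

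**Figure D2:**
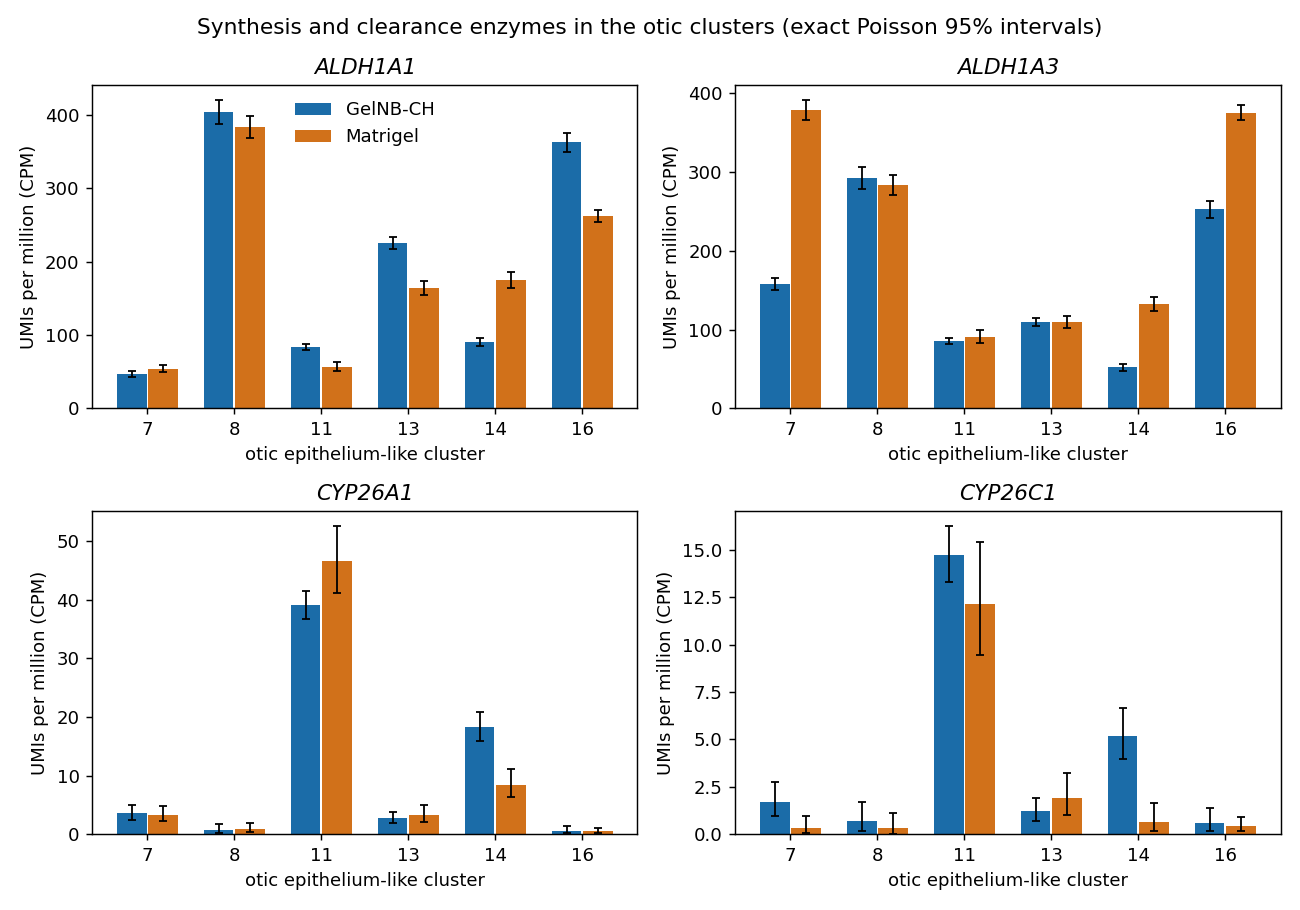
CPM of ALDH1A1, ALDH1A3, CYP26A1 and CYP26C1 (vertical axes, from 0) in the 6 otic epithelium-like clusters (horizontal axes), with GelNB-CH in blue, Matrigel in orange and exact Poisson 95% intervals as bars. ALDH1A1 and ALDH1A3 are high in clusters 8 and 16, and CYP26A1 and CYP26C1 in cluster 11, in both libraries.

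ALDH1A2 (chromosome 15, 57953424 to 58497866, minus strand), the main synthesis enzyme of embryonic mesoderm, was low in otic and mesenchymal cells. It was 4.03 CPM in GelNB-CH and 4.24 in Matrigel in mesenchyme, and 2.36 and 4.02 in otic cells. Among classes of at least 50 cells in each library its level was highest in glia, with 20.4 (17.7 to 23.4) and 30.4 (28.7 to 32.3). In cells of 8000 to 16000 UMIs the glial direction turned, from a log2 ratio of GelNB-CH over Matrigel of -0.58 to 0.41. Neuron-like cells had 7.33 and 16.6, while within each of their clusters the intervals of the libraries overlapped. Over all kept cells it was 4.17 and 11.4 CPM, 2.73-fold higher in Matrigel (2.51 to 2.97), in a library with the larger share of glia. With the classes weighted alike the log2 ratio went from -1.45 to -0.62. Several genes overlap ALDH1A2 on the opposite strand, among them AQP9 and LIPC, and the use of strand in counting is not stated in the sources used here. AC012653.2 and LIPC-AS1, which are also in the matrices, overlap ALDH1A2 on the same strand. Strand alone would not tell their reads apart from those of ALDH1A2.

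CYP26A1 and CYP26C1, retinoic acid hydroxylases, lie 3938 bases apart on chromosome 10 (CYP26C1 from 93060808 to 93069536 and CYP26A1 from 93073475 to 93077890, both plus strand). Within the otic class both were highest in cluster 11, where ALDH1A1 and ALDH1A3 stood well below their levels in clusters 8 and 16. In GelNB-CH, however, ALDH1A1 was lower in cluster 7 (46.8 against 83.8 CPM) and ALDH1A3 in cluster 14 (52.0 against 85.7). Over all 24 clusters the Pearson correlation of CYP26A1 was -0.11 with ALDH1A1 and -0.16 with ALDH1A3. That of CYP26C1 was 0.18 and 0.16. Otic cluster 11 was led by OC90, an otoconia component, and LRP2, an endocytic receptor. CYP26A1 was there at 39.1 CPM in GelNB-CH (36.8 to 41.5) and 46.6 in Matrigel (41.1 to 52.5), and CYP26C1 at 14.7 (13.3 to 16.3) and 12.2 (9.47 to 15.4). In clusters 7, 8, 13 and 16 CYP26A1 was between 0.518 and 3.59 CPM and CYP26C1 between 0.306 and 1.89. The cycling cluster 14 was between these, with 18.3 and 8.45 CPM of CYP26A1.

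CYP26A1 RNA was found in 12.2% of thinned cluster 11 cells in GelNB-CH and 14.4% in Matrigel, and in 0% and 0.084% of thinned glia, a class low in this gene (unthinned, 18.1% and 25.6% against 0.396% and 0.240%). Among thinned neuron-like cells the shares were 3.32% and 0.835%. In cluster 11, 6.50% and 6.88% had CYP26C1. A UMI of both genes was found in 2.52% of cells in GelNB-CH (1.90 to 3.26) and 3.13% in Matrigel (1.51 to 5.67), above the products of 0.794% and 0.988%, and both intervals lay above the product. CYP26A1 and ALDH1A3 were together in 1.74% (1.23 to 2.38) and 2.19% (0.884 to 4.45) of cluster 11 cells, beside products of 2.65% and 3.19%. For CYP26A1 and RARB, each with a start site that carries a printed repeat, the shares were 1.56% (1.08 to 2.17) and 2.81% (1.29 to 5.27), beside 2.50% and 3.14%. In GelNB-CH both of these shares lay below the product beyond their intervals, and in Matrigel the intervals included it. For CYP26A1 and ALDH1A1 the shares were 2.24% (1.66 to 2.95) and 1.25% (0.342 to 3.17), beside 2.70% and 1.98%. Both of those intervals included the product.

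Over the otic class as a whole CYP26A1 was 17.5 CPM in GelNB-CH (16.6 to 18.5) and 7.69 in Matrigel (6.94 to 8.50), 2.28-fold higher in GelNB-CH (2.03 to 2.56). Cluster 11, however, held 2341 of 6637 otic cells in GelNB-CH and 336 of 2696 in Matrigel. With the otic clusters weighted alike, the log2 ratio went from 1.19 to -0.10, and within cluster 11 the level was higher in Matrigel. CYP26C1, at 6.50 and 1.96 CPM in otic cells, kept its direction under that weighting, with a log2 ratio of 0.45 in place of 1.73.

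Outside the ear epithelium CYP26A1 was highest in the CNS progenitor-like cluster, at 68.6 CPM in GelNB-CH (60.7 to 77.3) and 41.6 in Matrigel (31.7 to 53.5). The cycling neuron-like cluster 20 had 40.6 CPM in GelNB-CH and 1.99 in Matrigel, from 106 and 4 UMIs. In mesenchyme it was low, 2.08 and 5.96 CPM, and higher in Matrigel in 7 of 7 clusters, with an interval of the ratio above 1 in 4 of them. Cluster 0, led by CRYM and FOXC2, had the largest Matrigel level of these, 16.8 CPM (13.7 to 20.3) against 2.30 (1.36 to 3.64).

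CYP26B1 (chromosome 2, 72129238 to 72148038, minus strand), the family member known from skeletal development, was low everywhere, with its highest class level in cartilage. It was 13.0 CPM in GelNB-CH and 20.5 in Matrigel in cartilage (ratio 1.58, 1.26 to 1.96), 9.76 and 9.25 in mesenchyme, and 4.38 and 6.51 in otic cells. In glia it was 2.33 and 0.793. Otic cluster 11, high in CYP26A1 and CYP26C1, had 2.99 and 4.41 CPM of CYP26B1. The highest otic levels of CYP26B1 were 9.93 CPM in GelNB-CH, in cluster 7, and 8.94 in Matrigel, in cluster 16. The libraries differed beyond counting error in cartilage, otic cells, neuron-like cells (3.34 and 5.03) and glia, and not in mesenchyme, where the ratio of Matrigel over GelNB-CH was 0.947 (0.831 to 1.08).

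DHRS3 (chromosome 1, 12567910 to 12617731, minus strand), which turns retinaldehyde back into retinol, was a gene of cartilage and mesenchyme and stood higher in Matrigel in all of their clusters. Cartilage had 41.0 CPM in GelNB-CH (37.8 to 44.3) and 76.9 in Matrigel (70.6 to 83.6), a ratio of 1.88 (1.67 to 2.11). Mesenchyme had 15.8 (14.8 to 16.9) and 38.5 (36.7 to 40.4), a ratio of 2.44 (2.25 to 2.65). The intervals did not overlap in either class, and the Matrigel level was the higher one in 7 of 7 mesenchyme clusters, by 1.45-fold to 3.19-fold, each with an interval above 1. In cartilage the meningeal fibroblast markers summed to 168 CPM in GelNB-CH and 257 in Matrigel, with 6 of 7 higher in Matrigel and none at 0. The mesenchyme markers summed to 1516 and 1833, with 10 of 14 higher and POU3F4 at 0 in both, and the cartilage markers to 19907 and 21241, with 3 of 12 higher. Their part in the cartilage differences of DHRS3 and RARB was not tested.

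Among mesenchyme clusters DHRS3 was highest in the cycling cluster 21 in GelNB-CH (25.8 CPM, 37.4 in Matrigel) and in cluster 3, led by LUM, BARX1 and SFRP2, in Matrigel (52.0 CPM, 20.0 in GelNB-CH). Cluster 1 was lowest in both, with 2.93 and 9.35. Its log2 ratio in mesenchyme, GelNB-CH over Matrigel, was -1.29, and it stayed between -1.49 and -1.23 over 7 alternatives, among them cells of 8000 to 16000 UMIs and clusters weighted alike. Of the 7 listed markers of meningeal fibroblasts, 6 were higher in Matrigel mesenchyme, with a summed level of 311 CPM in GelNB-CH and 565 in Matrigel and none at 0. The 14 mesenchyme markers summed to 5195 and 6566, with 6 higher in Matrigel. The 12 cartilage markers summed to 2003 and 2240, with 7 higher in Matrigel. Their part in the DHRS3 difference was not tested.

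Glia had little DHRS3 in GelNB-CH, 2.54 CPM (1.64 to 3.75, from 25 UMIs), and 12.7 in Matrigel (11.6 to 13.9, from 464), a ratio of 5.00 (3.35 to 7.81). All 3 glial clusters went the same way, by 3.54-fold to 7.09-fold, each with an interval above 1. In thinned cells 1.31% and 5.29% of glia had a UMI, against 0.960% and 0.597% of neuron-like cells (unthinned 1.74% and 13.1%, against 1.69% and 1.59%). The GelNB-CH level in glia was below the 3.02 CPM of neuron-like cells of the same library. Of those neuron-like cells, the cycling cluster 20 held 23 of 37 UMIs (8.80 CPM). Clusters 9 (1.88) and 17 (0.789) were below the glial level, with intervals that overlapped that of glia. The summed mesenchyme markers in glia were 1340 and 1866 CPM with 3 of 14 higher in Matrigel, POU3F4 at 0 in both, and the summed cartilage markers were 372 and 290 with 2 of 12 higher. The meningeal fibroblast markers summed to 200 and 285 CPM with 5 of 7 higher in Matrigel and none at 0, and the glial markers to 4286 and 5682 with 9 of 10 higher. The part of these lists in the difference was not tested. In otic cells DHRS3 was 3.90 and 4.97 CPM.

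**Figure D3:**
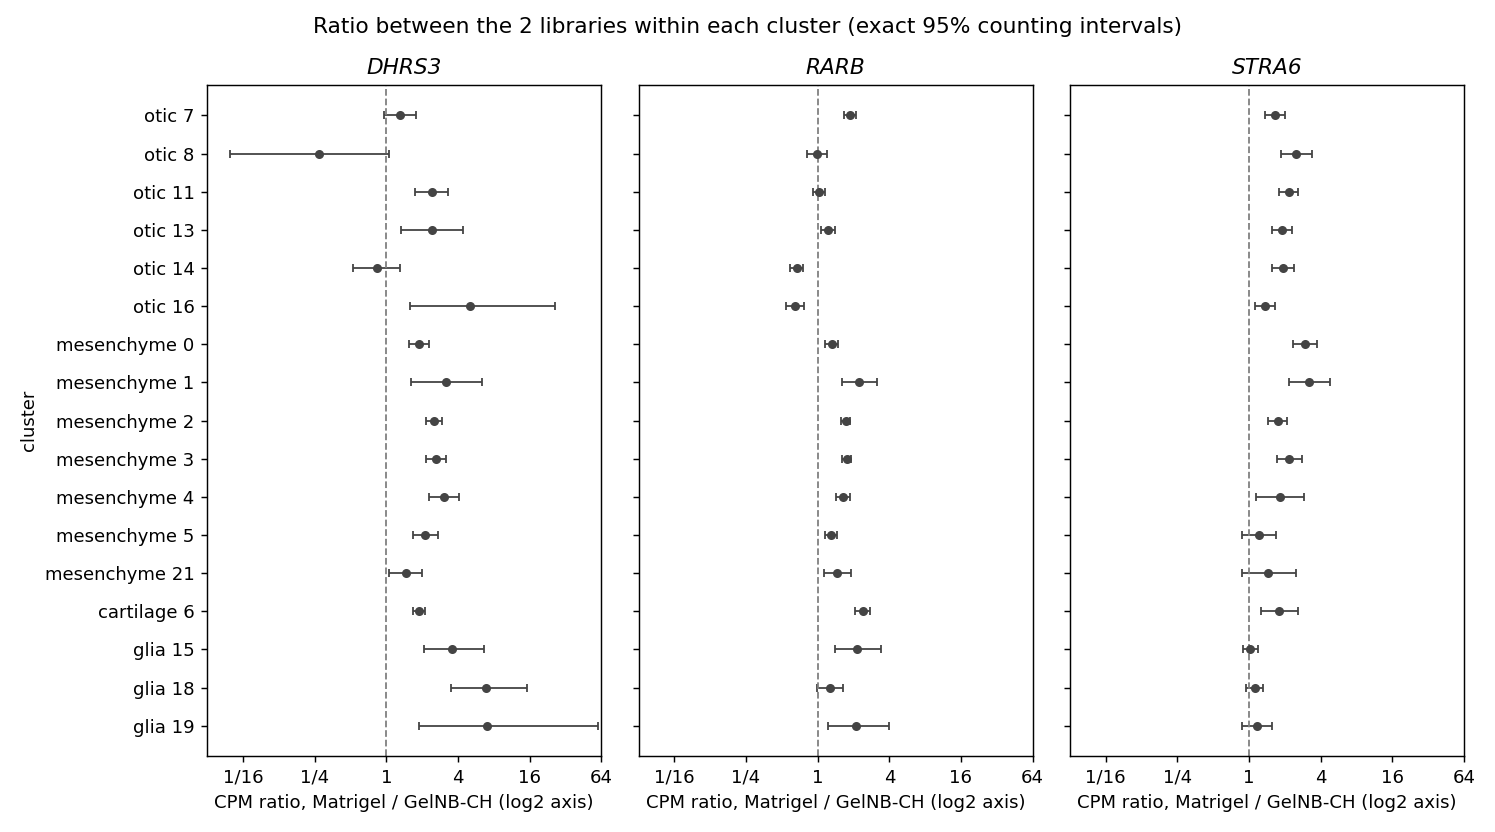
Ratio of CPM in Matrigel over GelNB-CH (horizontal axes, log2 scale, with exact 95% counting intervals) for DHRS3, RARB and the retinol importer STRA6 in each otic, mesenchyme, cartilage and glia cluster. DHRS3 and RARB lie above 1 in all 7 mesenchyme clusters, and STRA6 in all clusters shown.

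CRABP1 (chromosome 15, 78340324 to 78348230, plus strand), a carrier protein for retinoic acid, marked mesenchyme and glia. Its mesenchyme level was 1151 CPM in GelNB-CH and 1210.1 in Matrigel, and otic cells had 30.6 and 32.1. Among mesenchyme clusters it ran from 93.5 and 42.5 CPM in cluster 1 to 2772 and 2535 in cluster 3, of which it was one of the 10 leading genes. There 95.8% and 94.8% of thinned cells had a UMI, and in cluster 4 it was 94.5% and 96.1%, against 8.36% and 9.66% of otic cells (unthinned 14.1% and 20.5%).

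Glia had 569 CPM of CRABP1 in GelNB-CH (554 to 584) and 937 in Matrigel (928 to 947), a ratio of 1.65 (1.60 to 1.70), and Matrigel was higher in 3 of 3 glial clusters. Cluster 15 had the most, 999 and 1288. Neuron-like cells went the other way, with 272 and 125 CPM, but their clusters were unevenly filled. Cluster 9, led by STMN2 and SLC17A6, held 840 of 1418 neuron-like cells in GelNB-CH and 126 of 879 in Matrigel, and there CRABP1 was 501 and 620 CPM. Cluster 17, led by NEUROD1, held 356 and 663 cells and had 63.4 and 63.1 CPM.

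CRABP2 (chromosome 1, 156699606 to 156705816, minus strand), which passes retinoic acid to its nuclear receptors, was found in both otic and mesenchymal cells. Otic cells had 287 CPM in GelNB-CH (283 to 291) and 259 in Matrigel (255 to 264), and mesenchyme had 167 and 147. Otic cluster 13 had 376 and 337, cluster 7 had the least of the otic clusters with 119 and 117, and the unnamed keratin-rich cluster 12 had 375 and 361. GelNB-CH was higher in 6 of 6 otic clusters, in 4 with an interval above 1, but by 1.20-fold at most. The binding proteins were found together in mesenchyme: 65.1% and 57.6% of thinned cluster 3 cells had both, beside products of 64.8% and 56.6%.

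RARB (chromosome 3, 25174332 to 25597932, plus strand), a receptor whose own gene is a target of retinoic acid, was broad. Mesenchyme had 65.6 CPM in GelNB-CH (63.4 to 67.7) and 98.9 in Matrigel (96.0 to 102), otic cells 53.6 and 47.4, cartilage 22.3 and 53.3, neuron-like cells 28.5 and 27.9, and glia 12.5 and 17.9. As with DHRS3, Matrigel was higher in 7 of 7 mesenchyme clusters, by 1.30-fold to 2.24-fold, each with an interval above 1. The highest level was in mesenchyme cluster 3, with 111 CPM in GelNB-CH and 194 in Matrigel. In cartilage the ratio was 2.39 (2.06 to 2.77), beside the marker levels given there for DHRS3.

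In otic cells RARB had no common direction, and its log2 ratio of GelNB-CH over Matrigel, 0.18, turned negative under 3 alternatives (lowest -0.18, with the same mix of otic clusters). Matrigel was higher in clusters 7 (47.1 and 88.6 CPM) and 13 (38.9 and 47.7), GelNB-CH in clusters 14 (83.0 and 55.1) and 16 (28.2 and 18.3), and the intervals of the ratio included 1 in clusters 8 and 11. Clusters 8 and 16, with the highest ALDH1A1 of the otic class, had the lowest RARB in Matrigel, and cluster 16 the lowest in GelNB-CH. RARB overlaps TOP2B on the opposite strand, so reads of the 2 genes cannot be told apart if strand was not used in counting. RARB and DHRS3, both higher in Matrigel mesenchyme, were in the same thinned cells of cluster 2 in 1.29% and 5.22%, beside products of 1.33% and 5.07%.

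Read by class, a member was called apart at a ratio of 2 or more, provided that 1 library reached 10 CPM. Over all kept cells 8 members reached that level, and ALDH1A2 (higher in Matrigel) and CYP26A1 (higher in GelNB-CH) were apart, beside 2.18% of all genes that reached it. In otic cells 6 reached it and ALDH1A3 (Matrigel) and CYP26A1 (GelNB-CH) were apart, beside 1.88% of genes. In mesenchyme 5 reached it and DHRS3 was apart (Matrigel), beside 0.979%. The otic CYP26A1 difference changed sign with equal cluster weights.

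DHRS3 was the member apart in glia, of 7, beside 1.91% of genes, and RARB the one in cartilage, of 5, beside 2.50%. In neuron-like cells 3 of 5 were apart, ALDH1A2 higher in Matrigel and CYP26A1 and CRABP1 higher in GelNB-CH, beside 7.32%, and in CNS progenitors CRABP2 was apart of 4 (26.7 and 56.8 CPM, higher in Matrigel), beside 7.25%. Those 2 classes had the largest background. Cluster 20 held 106 of the 141 CYP26A1 UMIs of GelNB-CH neuron-like cells, and in cluster 9 the direction was the other one (5.80 and 14.5 CPM). CRABP1 was not higher in GelNB-CH beyond counting error in any neuron-like cluster (cluster 20 had 62.0 and 85.8 CPM). ALDH1A2 was 2.05 and 2.64 CPM in cluster 9, 15.5 and 20.1 in cluster 17 and 7.27 and 8.48 in cluster 20. Its intervals overlapped between the libraries in each of these clusters.

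**Figure D4:**
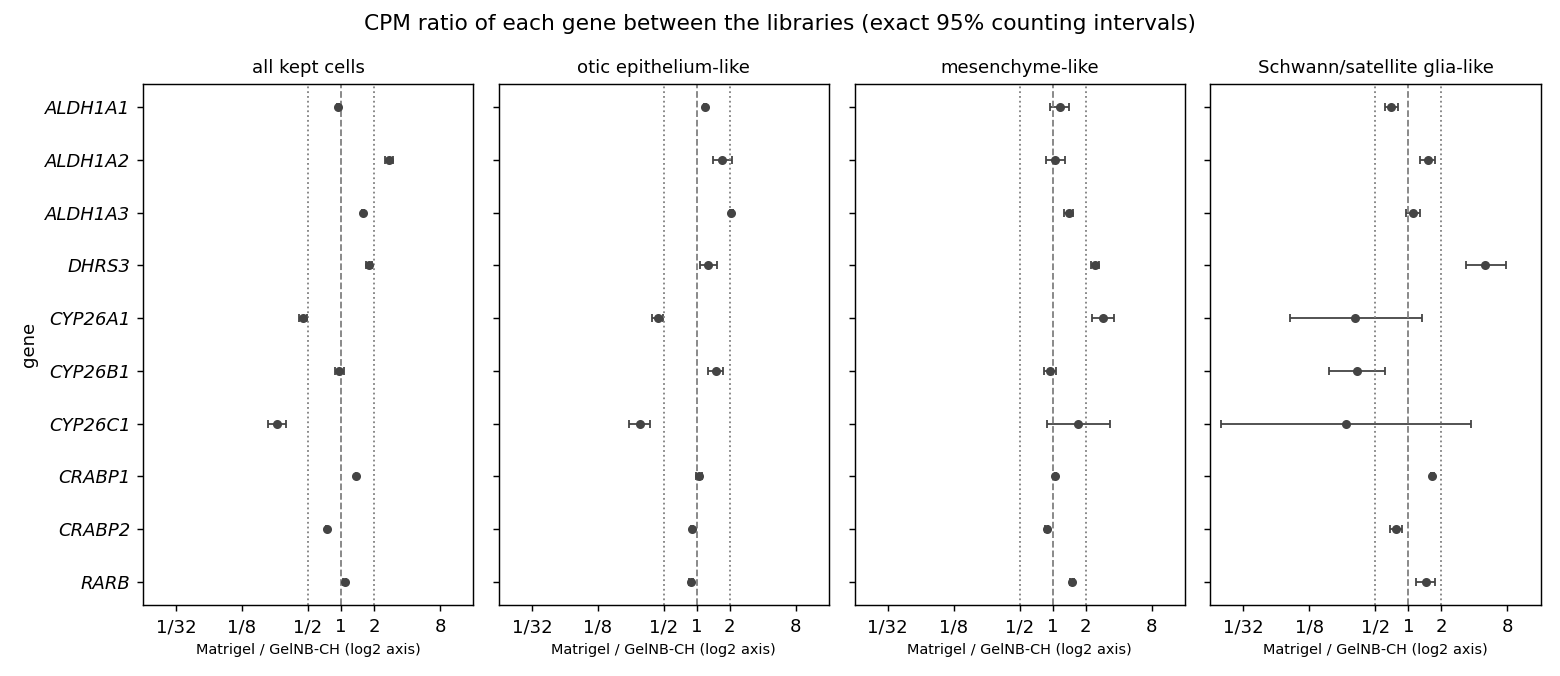
Ratio of CPM in Matrigel over GelNB-CH (horizontal axes, log2 scale, exact 95% counting intervals) for each of the 10 genes in all kept cells and in 3 classes; dotted lines mark 2-fold. DHRS3 lies beyond 2-fold towards Matrigel in mesenchyme and glia, and CYP26A1 lies towards GelNB-CH over all and otic cells and towards Matrigel in mesenchyme.

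Of 82 further genes of the pathway in 8 lists, 81 were in the matrices. STRA6, which imports retinol into cells, was the only gene apart of the 3 tested in its list of uptake, transport and storage genes, over all cells (14.2 and 30.6 CPM, 2.16-fold higher in Matrigel, 2.06 to 2.27) and in mesenchyme (11.7 and 23.8, 2.04-fold, 1.84 to 2.25). The share of all tested genes apart was 2.18% over all cells and 0.979% in mesenchyme. The otic levels of STRA6 were 15.5 and 27.9 CPM, 1.79-fold (1.66 to 1.94). Matrigel was higher in 22 of 22 clusters with at least 50 cells in each library, and the interval excluded 1 in 15 of them; the cluster view of STRA6 was chosen after its values were seen. DHRS3 was higher in Matrigel in 18 of the same 22, RARB in 18, ALDH1A3 in 15 and CYP26A1 in 12. For CYP26A1 the interval lay towards Matrigel in 6 of them and towards GelNB-CH in 5.

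Glia had the most STRA6, 51.7 and 57.5 CPM, and were more of the Matrigel library. The glial markers within mesenchyme summed to 569 CPM in GelNB-CH and 371 in Matrigel, with 3 of 10 higher in Matrigel and none at 0. Within otic cells they summed to 312 and 360, with 8 of 10 higher in Matrigel. Within cartilage they summed to 1133 and 1135, with 7 of 10 higher in Matrigel. Their part in the STRA6 differences was not tested. The median log2 ratio of the list was -0.10 over all cells, beside -0.03 for all genes.

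RDH10, the dehydrogenase of the retinol step in embryos, had 116 CPM in GelNB-CH and 106 in Matrigel in otic cells, against 23.6 and 25.1 in mesenchyme. None of 2 tested genes of that list and none of 3 in the list of other retinaldehyde reductases was apart over all, otic or mesenchyme cells. The list medians in otic cells were 0.02 and -0.01, beside -0.03 for all genes. None of 8 co-repressors and co-activators was apart in any of the 7 comparisons.

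Among receptors, RXRG, a partner receptor, was 4.36 and 18.0 CPM over all cells, 4.13-fold higher in Matrigel. It was the 1 of 7 tested genes apart there, beside 2.18% of all genes. It was a glial gene with 62.1 and 71.7 CPM, and within glia none of 7 was apart. RARG, a receptor known from cartilage, was highest in cartilage with 79.9 and 112 CPM. FABP5, which also binds retinoic acid, was 846 CPM in CNS progenitors of GelNB-CH and 394 in Matrigel.

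The list of genes known as induced by retinoic acid did not move one way. Over all cells MEIS1, a homeobox partner gene, was higher in GelNB-CH (44.2 and 20.9 CPM) and RARRES2 higher in Matrigel (13.5 and 27.4), of 7 tested of 26 listed. Of all genes tested there, 2.18% were apart. The list median was 0.17 over all cells, 0.48 in otic cells and -0.02 in mesenchyme, beside -0.03, -0.03 and -0.04 for all genes. In neuron-like cells the median was 1.02, beside -0.01. There 3 of 6 tested genes were apart, MEIS1, PBX3 and NR2F1, all higher in GelNB-CH, beside 7.32% of all genes. The neuron-like clusters were unevenly filled between the libraries, and the part of that in these differences was not tested. In cartilage the list median was -0.51, beside -0.05, and none of 8 was apart. The 12 HOX genes of the list, which mark hindbrain and trunk positions, had 168 UMIs in total in GelNB-CH and 149 in Matrigel, 0.923 and 0.947 CPM summed. OTX2, a head gene known to fall with retinoic acid, was higher in GelNB-CH in otic cells (41.9 and 19.6 CPM), beside a list median of 0.58 from 2 tested genes.

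The genes most like each member across the 24 clusters, by Pearson correlation of log2(CPM + 1) with both libraries pooled, were named by rule. The clusters share libraries and depth, and no p-value is given. ALDH1A1 was most like CA2, a carbonic anhydrase (r = 0.93), SH3TC2 and LURAP1L. ALDH1A3 was most like TBX3 (0.88), FMO2 and TRIM25. CYP26A1 was most like NTN1, a guidance factor known from semicircular canal formation in the inner ear (0.80), PLD5 and NTRK2.

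ALDH1A2 was most like CAP1 (0.85), SSH1 and WDFY1, and DHRS3 like HAS2, which makes hyaluronan (0.90), ARHGEF40 and FMNL3. CRABP1 was most like FBLN2 (0.89), COL1A1 and LGALS1, genes of connective tissue. CRABP2 was most like DMKN (0.92), ADAMTSL3 and EFNA4, and RARB like TSKU (0.80), GCHFR and PTPRG. CYP26B1 and CYP26C1 were below 20 CPM in every cluster with both libraries pooled, and the rule names no genes for them.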

How the data were processed

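The deposited values are UMI counts per gene and barcode, whole numbers filtered to called cells by the authors and not normalised. They were made with Cell Ranger, version 4.0.0 per the labels' protocols and 7.1.0 per the file headers, with STAR and GRCh38 (hg38) per the submitters' processing notes. No annotation version could be read from the labels or headers. Gene positions are from GENCODE v29 (GRCh38).

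Barcodes with at least 1000 genes and at most 15% mitochondrial UMIs were kept, and doublets marked by Scrublet (14.9% of 21743 GelNB-CH and 6.42% of 10912 Matrigel barcodes, expected rate 0.8% per 1000) were removed. Both libraries were clustered together in scanpy 1.11.5 (log counts scaled to 10000, 2000 variable genes, 30 components, 15 neighbours, Leiden resolution 1.0). A cluster was named from markers with a UMI in at least 10% of its cells and at least 2-fold over the median cluster, with at least 3 markers and a share of 0.3 of the list. The ambient RNA of free molecules was not removed.

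CPM were computed here from summed counts, with exact Poisson, conditional binomial and Clopper-Pearson 95% intervals that cover counting error only. Shares of cells were also taken after thinning to 5000 UMIs, which left out 1934 and 418 cells. The kept cells held 181987592 and 157320971 UMIs. The fold rule was tested on simulated data. TMM scaling used edgeR 4.0.16. The members, lists and rules were chosen with earlier results of these data known. All 10 members are named; likeness used genes of at least 20 CPM in some cluster, the top 3 per member, and pathway genes are named from lists where they reach 10 CPM in some class. No protein table was used here.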

Additional observations from a re-analysis of the deposited data

How the results depend on the processing

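The count of members apart moved with several choices. Over all cells, 2 members were apart, and the count was 0 with a larger CPM of at least 20, 1 without the barcode filter (ALDH1A2), 1 with doublets kept (ALDH1A2) and 1 with the same mix of classes (DHRS3). In otic cells 2 were apart, and the count was 1 with at least 20 CPM (ALDH1A3), 1 with each library clustered on its own (CYP26A1), 0 with the same mix of otic clusters and 0 in cells of 8000 to 16000 UMIs. In mesenchyme 1 was apart, and 2 with at least 5 CPM (CYP26A1 and DHRS3). In glia 1 was apart, and 0 with at least 20 CPM, 2 with doublets kept (ALDH1A2 and DHRS3) and 3 with separate clustering (ALDH1A2, CRABP1 and DHRS3). In cartilage 1 was apart, and 0 at resolution 2.0 and 0 with separate clustering. Of 343 single ratios under alternatives, 228 stayed within the counting interval of the reported ratio, 307 kept their direction, and 1 called ratio reversed: otic CYP26A1 with the same mix of otic clusters (log2 -0.10). The alternatives in glia, cartilage and mesenchyme, and of cells of 8000 to 16000 UMIs, were chosen after seeing the data. TMM scaling shifted every log2 ratio by 0.09. A count of 3 UMIs in CNS progenitors of Matrigel is 2.08 CPM, for every gene alike. The cause of these changes was not tested, and the intervals hold no variation between organoids or cultures.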
